A study of Mus musculus with 22 samples.

Results

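The mitochondrial carriers of the Slc25 family were examined in 3 organs, thymus, cerebrum and cerebellum, from mice with and without the Tol transgene. Members were taken by name: protein-coding genes whose GRCm38 symbol is Slc25a followed by a number, which gave 47 of the 34585 genes listed in the count tables. Tol mice were heterozygous for the Tol transgene, which is driven by the ubiquitous CAG promoter from a site 3′ of Col1a1 and encodes a scrambled protein built from pieces of fluorescent proteins, firefly luciferase, Cre recombinase and an HPV E7 epitope. WT mice were their littermates on the same C57BL/6 background, and animals of the colony were used at 7 to 14 weeks of age. The sex of those sampled was not given in the sources used here. RNA-seq was available for 4 Tol and 4 WT thymus libraries, 4 Tol and 4 WT cerebrum libraries, and 2 Tol and 4 WT cerebellum libraries, 22 in all. The questions were how the organs divide the work among closely related carriers and whether the carriers differ between Tol and WT mice.

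Slc25 carriers are small proteins, mostly of the mitochondrial inner membrane, that exchange nucleotides, phosphate, amino acids, keto acids, cofactors and iron between the cytosol and the matrix. They are encoded in the nucleus, made in the cytosol and imported, and many substrates are served by a pair of paralogs that differ in tissue. In brain, the aspartate/glutamate and glutamate carriers link mitochondria to neurotransmitter metabolism and to the malate-aspartate shuttle, whereas mitoferrins supply the iron for heme and iron-sulfur clusters.

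Library totals ran from 14543698 to 34776973 estimated counts, and the 47 carriers took 0.216% to 0.289% of them. Levels below are CPM (counts relative to the library total) after TMM scaling, a correction for library composition. Ranks, shares and ratios per length use CPM per kilobase of the principal transcript. CPM values of different genes set side by side, and log2 ratios of pairs, are not corrected for length, so a log2 ratio of 0 is not equal abundance. In the smallest and largest library, 3 counts correspond to 0.234 and 0.0745 CPM, and levels under this are not distinguishable from 0. The transgene transcript had at least 448 counts in each Tol library and at most 2 in any WT library. Thymocyte markers summed to 8088 to 11177 CPM in thymus and at most 45 CPM in brain, and neuron markers to 4519 to 8704 CPM in brain and at most 31 CPM in thymus. Cerebellar markers went against the label of 1 library. Granule cell markers summed to 135 CPM in Cerebellum Tol 2 against 1750 to 4212 CPM in the other 5 cerebellum libraries, and Purkinje cell markers to 319 against 1692 to 4218 CPM. Cerebellum WT 2 had the lowest sums of those 5 and an oligodendrocyte marker sum of 14590 CPM, against 4113 to 7988 CPM elsewhere in the cerebellum. Choroid plexus markers summed to 1279 and 4635 CPM in Cerebellum WT 2 and WT 4 and to at most 8 CPM in the other 4. Cerebellar values below therefore name these libraries where they matter.

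Of the 47 carriers, 43 passed the filter on low counts in at least 1 organ and 39 in all 3. Slc25a2, an ornithine carrier, Slc25a31, the testis ADP/ATP carrier, Slc25a41, an ATP-Mg/phosphate carrier, and Slc25a54 were too low for testing in every organ. Their highest counts in any library were 12, 3, 6 and 5, respectively. Slc25a34 was tested between Tol and WT in both brain regions but not in thymus, Slc25a43 in thymus and cerebellum, and Slc25a21 and Slc25a48 in cerebellum alone.

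The ADP/ATP carriers, which export the ATP made by oxidative phosphorylation, were the most abundant carriers and divided between thymus and brain. Slc25a5 (ANT2; GRCm38 chrX:36795651-36798807, plus strand) was first of the 47 in WT thymus at 314 ± 15.6 CPM per kb (SD, n = 4). Slc25a4 (ANT1; GRCm38 chr8:46206797-46211284, minus strand) was first in WT cerebrum at 269 ± 18.3 and in WT cerebellum at 270 ± 22.4 CPM per kb. In the 4 WT thymus libraries Slc25a4 stood at 116, 125, 136 and 136 CPM and Slc25a5 at 384, 364, 404 and 405 CPM. In WT cerebrum, Slc25a4 was at 500, 547, 549 and 477 CPM and Slc25a5 at 181, 197, 237 and 158 CPM, so that the order of the paralogs was turned round in every library. Per length, the Slc25a4 to Slc25a5 ratio averaged 0.212 ± 0.012 for thymus, 1.75 ± 0.19 for cerebrum and 1.41 ± 0.09 for cerebellum (SD, n = 4 WT each). Slc25a4 was 1.99 lower on the log2 scale in thymus than in cerebrum (SE 0.09; edgeR quasi-likelihood test, adjusted p = 1.63e-10). Slc25a5 was 1.03 higher (SE 0.10; adjusted p = 8.55e-07, edgeR), just past the 2-fold limit, and just under it at 0.996 and 0.943 without Cerebrum WT 1 or 4. In bulk tissue, a lower share of a cell type and less RNA per cell of that type cannot be told apart. The 300-base windows around the annotated starts (250 bases before, 50 after; RefSeq, GRCm38.p6) are shown for this pair because the order of its members turned round between thymus and brain, with GC boxes (GGGCGG, either strand) and CCAAT boxes (either strand) in capitals: Slc25a4 at chr8:46211013-46211312, minus strand, and Slc25a5 at chrX:36795347-36795646, plus strand.
Slc25a4: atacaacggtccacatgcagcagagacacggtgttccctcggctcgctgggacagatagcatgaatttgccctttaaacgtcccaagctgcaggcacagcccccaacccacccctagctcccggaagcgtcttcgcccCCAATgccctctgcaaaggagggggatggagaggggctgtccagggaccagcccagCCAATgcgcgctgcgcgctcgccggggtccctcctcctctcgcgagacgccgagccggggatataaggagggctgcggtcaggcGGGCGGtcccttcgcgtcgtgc
Slc25a5: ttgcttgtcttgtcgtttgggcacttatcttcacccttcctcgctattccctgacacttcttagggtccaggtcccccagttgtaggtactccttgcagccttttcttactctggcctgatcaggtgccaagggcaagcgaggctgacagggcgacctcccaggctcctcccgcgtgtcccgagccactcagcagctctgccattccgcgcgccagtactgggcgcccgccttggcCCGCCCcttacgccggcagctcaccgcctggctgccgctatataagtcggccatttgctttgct
Slc25a4 held 1 GC box and 2 CCAAT boxes, and Slc25a5 1 GC box and no CCAAT box. A GC box was present for 30 of the 36 carriers with a window (83.3%), against 38.2% of the 27025 genes with one, and a TATAAA box for 2 of 36 (5.56%) against 15.7%. CCAAT was found for 19 of 36 (52.8%) against 41.1%. By window rather than by gene, the shares over all 32851 windows were 35.7%, 13.6% and 37.4%. These matches describe letters in the windows and say nothing of binding.

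**Figure D1:**
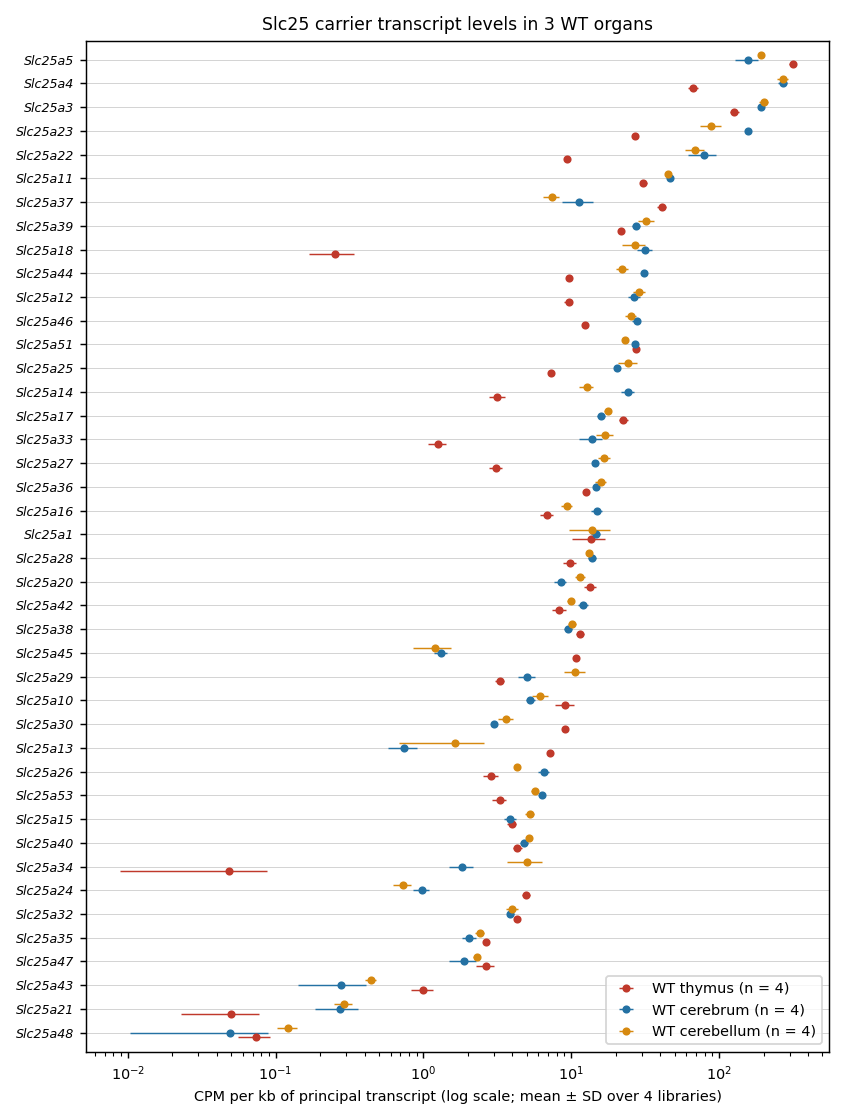
Level of 42 of the 43 carriers tested in at least 1 organ (horizontal log axis, CPM per kb of principal transcript), as mean ± SD over the 4 WT libraries of thymus, cerebrum and cerebellum. Slc25a5 leads in thymus at a mean of 314 CPM per kb and Slc25a4 in cerebrum and cerebellum at 269 and 270 CPM per kb.

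Summed per length, the ADP/ATP carriers made up 42.7% ± 0.75 of the carrier pool in WT thymus, 32.1% ± 2.0 in cerebrum and 36.2% ± 1.2 in cerebellum (SD, n = 4). Slc25a3, the phosphate carrier that supplies ATP synthase, took between 14.2% and 15.7% in the organ means. Its level per length was 127 ± 8.6, 191 ± 8.1 and 201 ± 14.1 CPM per kb, and it ranked 2 in each organ. With the length of all its exons in place of the principal transcript it ranked 3, 4 and 3, while Slc25a5 in thymus and Slc25a4 in brain stayed first. The 6 most abundant carriers held a like share in each organ (68.1%, 68.0% and 67.7%), but they were not the same genes: Slc25a37 and Slc25a51 were among them in thymus, and Slc25a22 and Slc25a23 in both brain regions. Slc25a23 ranked 7 in WT thymus and 3 in WT cerebrum.

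**Figure D2:**
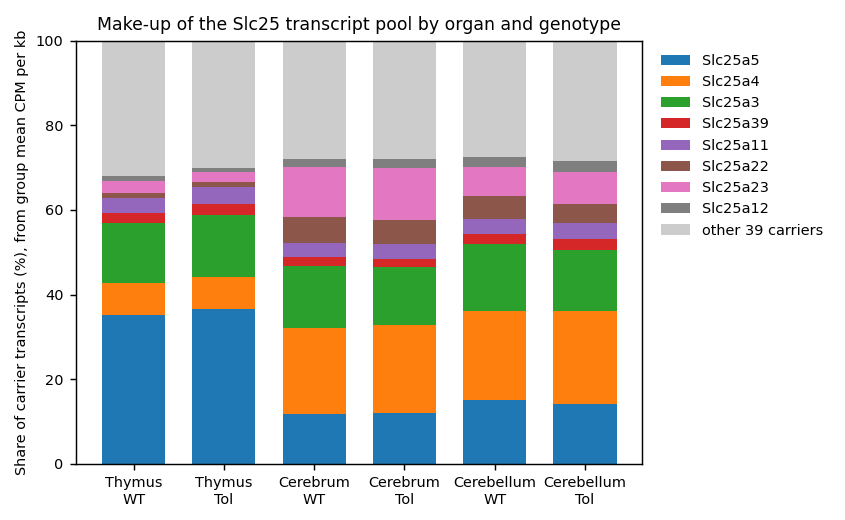
Stacked bars give the share (percent, from group means of CPM per kb) of the summed carrier level held by 8 named carriers and by the other 39 in each organ and genotype. Slc25a5 held 35.2% in WT thymus and 11.7% in WT cerebrum, Slc25a4 7.46% and 20.4%.

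Across all carriers, 22 of the 42 tested differed at least 2-fold with an adjusted p below 0.05 between WT thymus and WT cerebrum, 7 higher and 15 lower in thymus. Over all genes tested the same call was made for 59.9%, 29.7% higher and 30.2% lower. Between WT thymus and WT cerebellum, 19 of 42 were called, 6 higher and 13 lower, beside 57% of all genes (27.4% higher, 29.7% lower). Between WT cerebrum and WT cerebellum, 3 were called, all lower in cerebrum, beside 18.5% of all genes (10.2% higher, 8.34% lower). The median log2 difference of the carriers between thymus and cerebrum was -0.44, against 0.06 over all genes. Without TMM factors both medians shifted by about the same amount, to -0.02 and 0.47, and the called carriers split into 9 higher and 12 lower. The split against cerebellum was then 7 higher and 12 lower. The same contrasts within Tol mice called 20, 20 and 3 of 43 carriers, beside 60.5%, 57.2% and 11.7% of all genes. Of these, 20, 19 and 3 were called in WT mice too, all in the same direction. Over all genes tested in both, 93.4%, 91.8% and 84.0% of the calls in Tol mice were calls in WT mice too.

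Carriers of aspartate and glutamate showed the widest differences between WT thymus and WT cerebrum in both directions. Slc25a12 (aralar) and Slc25a13 (citrin) exchange mitochondrial aspartate for cytosolic glutamate in the malate-aspartate shuttle. Slc25a13 was at 22.6, 21.2, 22.6 and 23.8 CPM in WT thymus and at 1.84, 2.38, 3.00 and 2.04 CPM in WT cerebrum. Slc25a12 ran the other way, at 55.5 to 63.7 CPM in WT thymus and 148 to 182 CPM in WT cerebrum. Neither gene's thymus and cerebrum libraries overlapped. Slc25a13 was 3.31 higher in thymus than in cerebrum on the log2 scale (SE 0.34; edgeR, adjusted p = 1.01e-06), whereas Slc25a12 had a difference of -1.45. Per length the Slc25a12 to Slc25a13 ratio was 1.33 ± 0.11 in WT thymus, against 37.0 ± 8.0 for cerebrum and 22.03 ± 11.9 for cerebellum (SD, n = 4). The wide spread in cerebellum came with Slc25a13 at 2.43, 9.24, 3.74 and 4.97 CPM, highest in Cerebellum WT 2, the library with the high oligodendrocyte marker sum. The call of Slc25a13 between cerebrum and cerebellum (log2 difference -1.13) was at -0.68 without that library, under the 2-fold limit. What the marker difference contributed was not tested.

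Slc25a18 and Slc25a22 import glutamate into the matrix. Slc25a18 was near the lower limit of detection in WT thymus, at 0.376, 0.484, 0.362 and 0.717 CPM (7 to 24 counts), and at 54.5, 69.6, 60.2 and 56.3 CPM in WT cerebrum. That is a log2 difference of -6.84 (SE 0.21; edgeR, adjusted p = 7.46e-12), the largest of the 42 carriers tested. Slc25a22 was at 25.8 to 26.9 CPM in WT thymus and 180 to 277 CPM in WT cerebrum (log2 difference -3.04). Brain thus had more of both, and the Slc25a18 to Slc25a22 ratio per length came to 0.0271 for thymus, 0.42 for cerebrum and 0.405 for cerebellum. In the cerebellum, the library low in granule and Purkinje cell markers, Cerebellum Tol 2, had 104.7 CPM of Slc25a18 and 98.4 CPM of Slc25a22, whereas the other 5 libraries had 40.2 to 59.2 and 154 to 219 CPM.

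ATP-Mg/phosphate carriers adjust the matrix adenine nucleotide pool in response to calcium, and the balance among them differed by organ. Together they held 4.42% of the carrier pool in WT thymus, 13.5% in cerebrum and 8.89% in cerebellum. Slc25a23 (SCaMC-3) was at 89.3 to 92.2 CPM in WT thymus, 503 to 547 CPM in WT cerebrum and 242 to 348 CPM in WT cerebellum. Slc25a24 (SCaMC-1) was at 15.4 to 18.0 CPM in WT thymus and at most 3.96 CPM in WT cerebrum. The Slc25a24 to Slc25a23 ratio per length came to 0.183 for thymus, 0.00621 for cerebrum and 0.00848 for cerebellum. On the log2 scale with 0.5 CPM added, this ratio changed 26.5-fold between thymus and cerebrum, the widest of the 11 pairs examined in that contrast. Slc25a25 (SCaMC-2) was at 25.0 to 26.8 CPM in WT thymus, 67.5 to 75.3 CPM in WT cerebrum and 78.1 to 103.5 CPM in WT cerebellum. Its ratio to Slc25a23 per length came to 0.271 ± 0.014 for thymus, 0.130 ± 0.009 for cerebrum and 0.285 ± 0.085 for cerebellum (SD, n = 4). The log2 ratio differed by -0.01 between thymus and cerebellum although both genes were lower in thymus (log2 differences -1.69 and -1.67). Cerebellum WT 2 stood apart with a log2 ratio of -1.22, against -2.08 to -1.79 in the other WT cerebellum libraries. Leaving out 1 library moved the difference between -0.11 and 0.17.

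**Figure D3:**
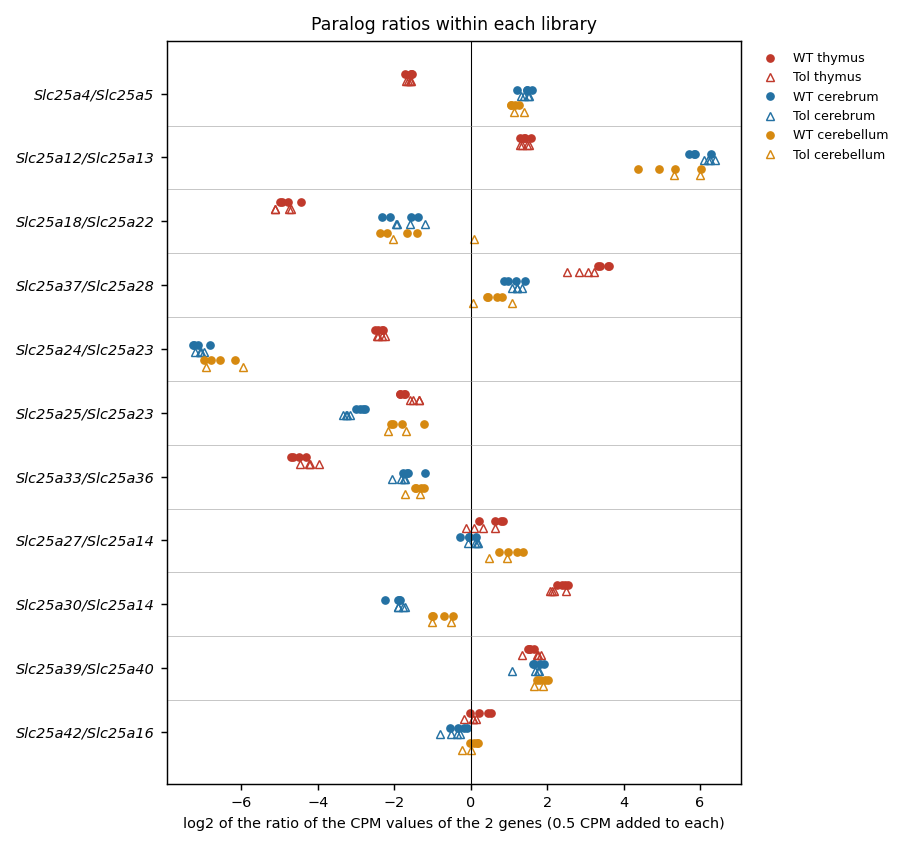
Log2 ratio of CPM within each of 11 paralog pairs in every library (horizontal axis, pseudocount of 0.5 CPM), with filled circles for WT and open triangles for Tol libraries, coloured by organ. The ratios are not corrected for transcript length. Slc25a4/Slc25a5 lies below 0 in all thymus libraries and above 0 in all brain libraries, with WT means of -1.60 for thymus, 1.44 for cerebrum and 1.13 for cerebellum.

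Mitoferrins, which bring iron into mitochondria, were led by Slc25a37 (mitoferrin 1) in thymus. It stood at 178, 177, 153 and 178 CPM in WT thymus, 36.9 to 61.9 CPM in WT cerebrum and 27.6 to 35.6 CPM in WT cerebellum. Slc25a28 (mitoferrin 2) was at 14.1 to 17.3 CPM in WT thymus and 19.9 to 22.7 CPM in WT cerebrum. Their ratio per length averaged 4.24 ± 0.42 for thymus, 0.82 ± 0.15 for cerebrum and 0.562 ± 0.076 for cerebellum (SD, n = 4). Pyrimidine nucleotide carriers, needed for mitochondrial DNA and RNA synthesis, changed through 1 partner: Slc25a33 was at 2.02 to 2.81 CPM in WT thymus and 21.8 to 32.2 CPM in WT cerebrum, while Slc25a36 was at 64.9 to 68.7 and 74.2 to 83.0 CPM. Slc25a14 (UCP5) and Slc25a27 (UCP4), named brain uncoupling proteins for their sequence likeness to Ucp1, were both lower in thymus, by 2.91 and 2.18 on the log2 scale. Their relative Slc25a30 was higher there by 1.61 (10.3 to 11.1 CPM in WT cerebrum, 31.3 to 33.7 CPM in WT thymus). Slc25a39 and Slc25a40, needed for mitochondrial glutathione, had a ratio per length of 4.99 in WT thymus, 5.75 in cerebrum and 6.25 in cerebellum. Slc25a42 and Slc25a16, linked to coenzyme A, had ratios of 1.22 and 0.81.

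The log2 ratio of each pair was compared between WT organs with a two-sided exact permutation test over libraries, 33 tests in all with Benjamini-Hochberg adjustment. The smallest p that 4 against 4 allows is 0.0286, and 23 of the 33 reached it with an adjusted p of 0.0410. Between thymus and cerebrum these were 10 of 11 pairs, Slc25a39/Slc25a40 being the exception (exact p above that minimum). Between thymus and cerebellum, 8 of 11 passed, the others being Slc25a25/Slc25a23, Slc25a27/Slc25a14 and Slc25a42/Slc25a16. Between the brain regions, 5 passed: Slc25a37/Slc25a28, Slc25a25/Slc25a23, Slc25a27/Slc25a14, Slc25a30/Slc25a14 and Slc25a42/Slc25a16. In Tol mice, 9 of the 11 ratios passed between thymus and cerebrum (adjusted p = 0.0349, exact permutation test), and there Slc25a27/Slc25a14 also missed, with a log2 difference of 0.12. This adjustment ran over the 11 tests of that contrast alone, so its adjusted p is not comparable with that over 33 tests in WT mice.

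Among carriers outside these pairs, Slc25a45 and Slc25a43 were higher in WT thymus than in WT cerebrum, by 3.06 and 1.84 on the log2 scale. Slc25a45 was at 25.6 to 28.4 CPM in thymus and 2.82 to 3.63 CPM in cerebrum, while Slc25a43 was at 0.94 to 1.32 and 0.12 to 0.488 CPM. The fold of Slc25a43 rests on few counts, 2 to 9 in the WT cerebrum libraries. Slc25a44, a carrier of branched-chain amino acids, was lower in thymus by 1.66, Slc25a46, an outer membrane protein of mitochondrial dynamics, by 1.12, and Slc25a26, which imports S-adenosylmethionine, by 1.17. Slc25a34 was at 0 to 0.235 CPM in WT thymus, at most 5 counts, against 4.02 to 6.05 CPM in WT cerebrum and 10.5 to 18.4 CPM in WT cerebellum. Slc25a21, the oxodicarboxylate carrier, had at most 4 counts in WT thymus, so both fitted folds (-5.18 and -2.40 on the log2 scale against cerebrum) rest on few counts. Slc25a29, a carrier of basic amino acids, separated the brain regions, at 8.30 to 11.4 CPM in WT cerebrum and 17.6 to 25.5 CPM in WT cerebellum (log2 difference -1.07, SE 0.14; edgeR, adjusted p = 3.62e-05), a difference that was -0.99 and -0.97, under the 2-fold limit, without Cerebrum WT 2 or Cerebellum WT 4. In Cerebellum Tol 2, the library low in cerebellar neuron markers, it was at 8.83 CPM. Slc25a1 (citrate), Slc25a15 (ornithine), Slc25a32 (folate and FAD) and Slc25a51 (NAD) had log2 differences between -0.09 and 0.17 for thymus against cerebrum.

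Other genes of mitochondrial transport were examined as lists. Of 18 other transport genes, 4 were at least 2-fold higher and 7 at least 2-fold lower in WT thymus than in WT cerebrum, shares not far from the 29.7% and 30.2% of all genes. The lowest p was that of Sfxn5, a sideroflexin, with a difference of -6.13 on the log2 scale. Of 12 genes of the carrier import route, 0 were higher and 4 lower, near the 30.2% of all genes for lower (median -0.41), with the lowest p for Tomm20, an outer membrane receptor, at -2.10. Of 4 malate-aspartate shuttle enzymes, 3 were lower, among them Got1 at -3.31. Of 6 genes used as a measure of mitochondrial content, 1 was lower (median -0.38). Of the 4 tested Slc25 family genes with other symbols, 1 was higher and 2 lower, and the higher one was Ucp2, at 577 to 610 CPM in WT thymus and 13.9 to 17.1 CPM in WT cerebrum. The carriers' own median of -0.44 lay near those of the import and content lists.

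Between Tol and WT mice, no carrier was called in any organ at an adjusted p below 0.05 (edgeR). In thymus, 0 of 40 carriers were called beside 0.0985% of all genes. At an unadjusted p below 0.05 there were 13, 9 higher and 4 lower, a share of the same order as the 24.4% of all genes, and Tol and WT libraries did not overlap for 7 carriers beside 11.6% of all genes. In cerebrum, 0 of 40 were called beside 0% of all genes, 4 had an unadjusted p below 0.05 beside 9.66%, and 4 did not overlap beside 6.46%. In cerebellum, 0 of 43 were called beside 0%, 0 had an unadjusted p below 0.05 beside 3.16%, and 8 did not overlap beside 10.5%. With DESeq2, 3 of 40 carriers were called in thymus, 1 of 40 in cerebrum and 0 of 43 for cerebellum. Over all genes tested these calls numbered 1267 of 16248, 184 of 15596 and 10 of 16662. All carriers in thymus and cerebrum had fitted log2 differences between -0.43 and 0.46, with a median SE of 0.08 in thymus and 0.09 in cerebrum. In cerebellum the median SE was 0.15, and without Cerebellum Tol 2 a single Tol library is set against 4 WT libraries and assumed to vary as they do (0 called, 2 at an unadjusted p below 0.05).

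In thymus, the lowest p belonged to Slc25a11, the 2-oxoglutarate/malate carrier, at 55.7, 70.9, 66.3 and 65.3 CPM among Tol libraries and 48.2, 53.3, 54.3 and 54.2 CPM in WT libraries. Every Tol library lay above every WT library (log2 difference 0.30, SE 0.08; edgeR, adjusted p = 0.0862). The next, Slc25a26, stood at 7.52, 8.93, 7.17 and 6.51 CPM among Tol libraries and 4.51, 5.81, 5.74 and 5.83 CPM in WT mice (log2 difference 0.46; edgeR, adjusted p = 0.0916). Exons of Slc25a11 overlap Rnf167 over 189 bases and those of Slc25a26 overlap Lrig1 over 144 bases on the opposite strand. Slc25a28 (0.32), Slc25a37 (-0.24) and Slc25a23 (-0.19) followed, with adjusted p-values of 0.113, 0.115 and 0.120 (edgeR). Leaving out Thymus Tol 1 changed this: 8 of 40 carriers were then called, 6 higher and 2 lower, beside 2978 of the 16370 genes tested. Among these carriers were Slc25a11 at 0.38 (edgeR, adjusted p = 0.00782) and Slc25a23 at -0.23 (edgeR, adjusted p = 0.0168). Leaving out any other thymus library gave 0 called carriers. Of DESeq2's 3 calls, Slc25a11 and Slc25a26 were higher and Slc25a37 lower (adjusted p = 0.0210, 0.0362 and 0.0406).

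**Figure D4:**
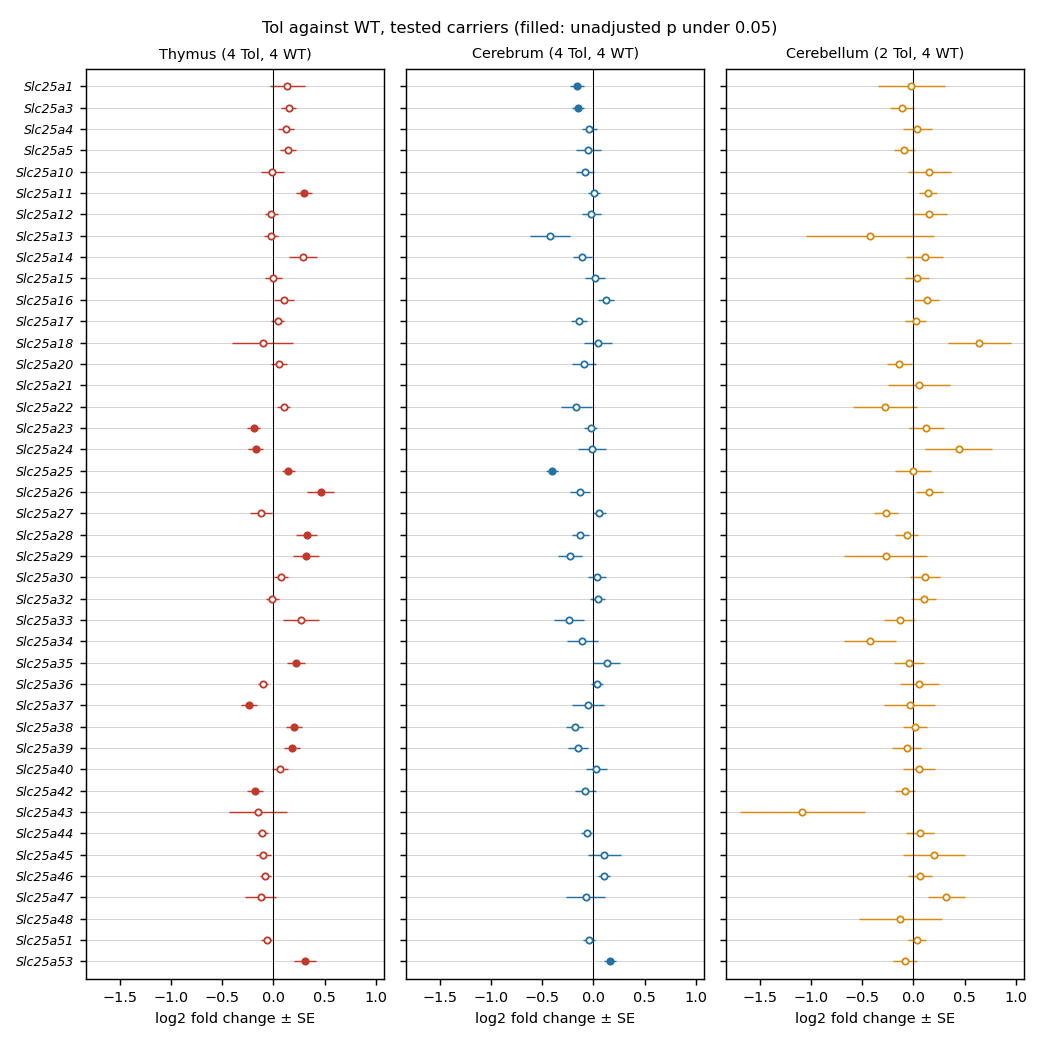
Log2 difference between Tol and WT mice for the carriers tested (horizontal axis) in thymus, cerebrum and cerebellum, with bars of 1 SE and filled points for an unadjusted p below 0.05. Slc25a25 in cerebrum stands at -0.41, Slc25a26 in thymus at 0.46, and the median SE is 0.15 in cerebellum against 0.08 in thymus and 0.09 in cerebrum.

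Slc25a25 (GRCm38 chr2:32414487-32451445, minus strand) had the lowest p in cerebrum. The Tol libraries had 53.9, 55.3, 57.4 and 50.1 CPM, and the WT libraries 73.7, 71.0, 67.5 and 75.3 CPM. Every Tol library lay below every WT library, and the log2 difference was -0.41 (SE 0.06; edgeR, unadjusted p = 7.84e-05, adjusted p = 0.143). DESeq2 gave an adjusted p of 2.02e-05. In thymus the gene stood at 30.2, 29.0, 26.7 and 28.1 CPM among Tol libraries and 25.0, 25.1, 26.8 and 26.5 CPM among WT libraries, and the groups overlapped (log2 difference 0.14; edgeR, adjusted p = 0.198). In cerebellum the 2 Tol libraries, at 73.6 and 93.9 CPM, lay below all and above 3 of the WT libraries, which were at 82.2, 103.5, 78.1 and 78.6 CPM.

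The effect of Tol on Slc25a25 differed between cerebrum and thymus by -0.55 on the log2 scale (SE 0.08; edgeR interaction term, adjusted p = 0.0279). It was the only one of 41 carriers called in that test, beside 0.107% of all genes. The call was lost in 11 of the 16 fits that left out 1 library, with adjusted p-values over the 16 from 0.0104 to 0.0793 and log2 differences from -0.59 to -0.51. These were the fits without Thymus Tol 2 or 4, any Thymus WT library, Cerebrum Tol 1, 2 or 4, or Cerebrum WT 1 or 4. It was also lost when all 22 libraries were fitted together (adjusted p = 0.179).

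The start sites of Slc25a25 are shown because this was the carrier with the lowest p between Tol and WT mice. The gene has 3 annotated start windows (RefSeq, GRCm38.p6), of which the first and the third are printed. The window between them, chr2:32431102-32431401, holds 2 CCAAT boxes and no GC box or CRE. Capitals mark GC boxes, CCAAT boxes and the cAMP response element (CRE; TGACGTCA, or its half-site TGACG, either strand), and the windows lie at chr2:32451421-32451720 and chr2:32424017-32424316, both on the minus strand.
Slc25a25 upstream start: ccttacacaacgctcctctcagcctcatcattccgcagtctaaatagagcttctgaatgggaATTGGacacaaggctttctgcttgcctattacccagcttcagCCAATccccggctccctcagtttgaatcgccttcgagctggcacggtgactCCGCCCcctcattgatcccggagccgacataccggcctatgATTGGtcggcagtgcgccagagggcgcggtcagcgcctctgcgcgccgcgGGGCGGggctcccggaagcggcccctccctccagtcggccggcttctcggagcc
Slc25a25 downstream start: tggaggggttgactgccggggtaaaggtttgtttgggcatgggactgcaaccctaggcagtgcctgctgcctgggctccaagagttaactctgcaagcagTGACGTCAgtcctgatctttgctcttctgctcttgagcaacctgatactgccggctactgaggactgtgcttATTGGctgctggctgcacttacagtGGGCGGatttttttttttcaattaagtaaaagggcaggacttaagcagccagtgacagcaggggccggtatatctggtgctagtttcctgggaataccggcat
The downstream window holds a full CRE, within which the half-site lies on each strand, and the upstream window holds none. A full CRE occurred for 2 of the 36 carriers (5.56%) against 2.03% of all genes with a window (1.79% of windows), and a half-site for 12 of 36 (33.3%) against 23% (20.8% of windows). The count tables do not separate the transcripts from these starts.

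Lists of activity-dependent and hormone-dependent genes were examined beside Slc25a25 in cerebrum. Over all genes tested there, 8012 of 15596 had a fitted log2 difference below 0, and 9.66% had an unadjusted p below 0.05 (edgeR). All 10 immediate early genes, induced by neuronal activity, had a fitted log2 difference below 0 (median -0.73, Fosb -1.48), with 2 of 10 at an unadjusted p below 0.05 and 0 called (edgeR). Their summed level was 536 to 1476 CPM for Tol libraries, against 1053 to 2810 CPM for WT libraries, and these ranges overlap. All 8 glucocorticoid response genes were below 0 as well (median -0.51, Per1 -1.40), with 5 of 8 at an unadjusted p below 0.05 and 0 called. Their sums were 444 to 556 CPM for Tol libraries, against 613 to 826 CPM for WT libraries, with no overlap. In cerebellum, where Slc25a25 overlapped between Tol and WT libraries, the same 8 genes summed to 344 to 412 CPM for Tol libraries, against 528 to 604 CPM for WT libraries. In thymus they summed to 479 to 517 CPM for Tol libraries, against 570 to 665 CPM for WT libraries. Both in cerebellum and in thymus, 6 of the 8 genes, not all, were below 0. In each, 4 of 8 had an unadjusted p below 0.05 (edgeR), beside 3.16% and 24.4% of all genes. Klf9, a glucocorticoid-induced factor, was lower in thymus by 0.83 (edgeR, adjusted p = 0.0233). The part of either list in the Slc25a25 values was not tested. Exons of Slc25a25 also overlap those of Naif1 on the opposite strand over 379 bases. The setting of strand in the counting was not given in the sources used here.

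**Figure D5:**
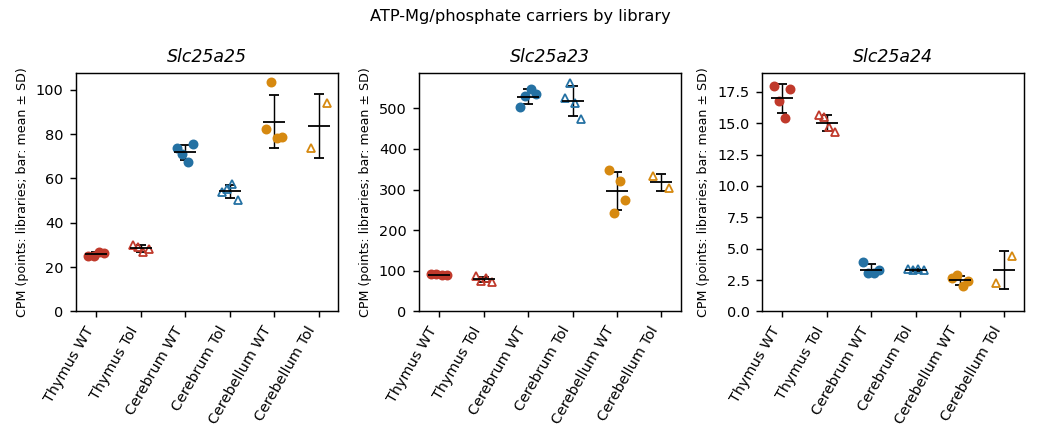
Levels (CPM, vertical axes) of the 3 ATP-Mg/phosphate carriers tested in every Tol (triangles) and WT (circles) library by organ, with the mean and SD of each group as bars. For Slc25a25 in cerebrum the Tol libraries lie between 50.1 and 57.4 CPM and the WT libraries between 67.5 and 75.3 CPM.

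Other carriers with a low p in cerebrum differed less. Slc25a53 had a log2 difference of 0.16, Slc25a3 of -0.15, and Slc25a1, the citrate carrier, of -0.16, each with no overlap between Tol and WT libraries and adjusted p-values of 0.439, 0.465 and 0.508 (edgeR). Slc25a13 was at -0.43 with overlapping groups. In cerebellum, the 5 lowest p-values belonged to Slc25a27 (-0.27), Slc25a18 (0.64), Slc25a43 (-1.08), Slc25a47 (0.32) and Slc25a34 (-0.42), all with an adjusted p of 0.957 (edgeR). The value of Slc25a18 was 0.02 without Cerebellum Tol 2, and Slc25a43 had 0.0824 and 0.363 CPM in the Tol libraries, against 0.436 to 0.54 CPM in the WT libraries, close to the limit of detection.

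No paralog ratio was called between Tol and WT mice after adjustment over the 33 tests (exact permutation test). With 4 against 4 libraries, the smallest possible p could pass this adjustment only if most of the 33 tests reached it. A few fully separated pairs were therefore bound to stay uncalled, and the lack of calls does not show that the ratios were alike. In 3 tests the groups did not overlap and the unadjusted p was the smallest possible, 0.0286, with an adjusted p of 0.314. These were Slc25a37/Slc25a28 in thymus (-0.56 on the log2 scale, a per-length ratio of 2.89 ± 0.59 in Tol and 4.24 ± 0.42 in WT mice), Slc25a25/Slc25a23 in thymus (0.33) and Slc25a25/Slc25a23 in cerebrum (-0.37). Per length, the Slc25a25 to Slc25a23 ratio was 0.344 ± 0.027 in Tol and 0.271 ± 0.014 in WT thymus, and 0.0998 ± 0.0054 in Tol and 0.130 ± 0.009 in WT cerebrum (SD, n = 4). The Slc25a4 to Slc25a5 log2 ratio differed by -0.02 in thymus and -0.00 in cerebrum. In cerebellum, 2 against 4 libraries cannot give an exact p below 0.133.

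In the lists of other mitochondrial transport, carrier import, malate-aspartate shuttle enzymes, mitochondrial content and family genes with other symbols, 0 genes were called between Tol and WT mice in each of the 3 organs (edgeR). In thymus, 7 of 12 import genes had an unadjusted p below 0.05, beside 24.4% of all genes, all 7 with a positive difference (list median 0.26). The same held for 7 of 18 other transport genes, led by Micu2, a regulator of the calcium uniporter (0.36; edgeR, adjusted p = 0.0607). The medians of these lists in thymus were 0.10 for other transport, 0.06 for shuttle enzymes, 0.12 for content and 0.05 for family genes, beside 0.05 for the carriers and 0.01 over all genes. In cerebrum, 16 of 18 other transport genes and all 6 content genes had a fitted difference below 0, and 0 of these 24 had an unadjusted p below 0.05. Among all genes tested in cerebrum, 8012 of 15596 lay below 0 and 9.66% had an unadjusted p below 0.05 (edgeR).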

How the data were processed

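RNA from frozen thymus, cerebrum and cerebellum was sequenced by the authors as stranded, poly(A)-selected single-end libraries. Per the authors' methods, Salmon 0.14.1 quantified the reads against GRCm38 transcripts and the Tol sequence, and the submitters' processing notes also name edgeR 3.9. The deposited values are estimated counts per gene (expected counts, given as whole numbers), with no normalization, and were used as deposited. Columns headed MRT were taken as Tol by their sample titles. Gene names, positions and transcript lengths came from GENCODE vM21 (GRCm38), and start windows from RefSeq (GRCm38.p6; 36 of 47 carriers matched). Windows on chromosome 18, where Slc25a2 and Slc25a46 lie, were left out. Levels per length can shift with the transcript an organ uses, since 1 principal transcript stood for each gene.

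Genes were filtered with filterByExpr, scaled by TMM and tested with edgeR 4.0.16 (R 4.3.3) by the quasi-likelihood test, with Benjamini-Hochberg adjustment over all genes tested. Each organ's Tol and WT libraries were compared, the organs were compared within WT and within Tol mice, and the effect of Tol was compared between cerebrum and thymus by an interaction term. The call limits were an adjusted p below 0.05 and, between organs, at least 2-fold. Paralog log2 ratios used CPM plus 0.5 and a two-sided exact permutation test. DESeq2 1.42.0, other scalings and filters, left-out libraries and a replicate block were alternatives. The fitting scripts were tested on simulated data. The study describes its groups as separate mice. Whether organs with the same replicate number came from 1 mouse is not given in the sources used here. No libraries were duplicates (chi-square per degree of freedom 5.28 to 223.5 between replicates). Counting limits cover counting error only. Named genes were the members of the 11 pairs, Slc25a25, carriers called or with the 5 lowest p-values in a comparison, the carriers of phosphate, citrate and other abundant substrates, and the list member with the lowest p. Carriers below the filter are named where a count turns on them. Fosb and Klf9, and carriers named as having small organ differences, were singled out with their values known. The values of 1 carrier, which enters the counts over the family, are not reported here. The members and lists were chosen with earlier results of these data known.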

Additional observations from a re-analysis of the deposited data

Results flagged for a closer look

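A library far from the others of its group was looked for with Dixon's test in groups of 4, which picks about 1 group in 20 by chance. It picked 15 of 210 carrier levels and 2 of 55 paralog ratios. Cerebellum WT 2, the library with the highest oligodendrocyte marker sum of the cerebellum, was high for Slc25a1 (33.9 CPM, others 18.3 to 20.9), Slc25a25 (103.5 CPM, others 78.1 to 82.2) and Slc25a36 (93.4 CPM, others 78.5 to 80.8). Thymus WT 1 was low for Slc25a11 (48.2 CPM, others 53.3 to 54.3) and Slc25a26 (4.51 CPM, others 5.74 to 5.83), and high for Slc25a28 (17.3 CPM, others 14.1 to 14.3). Its log2 ratio of Slc25a4 to Slc25a5 was -1.72, with the others between -1.57 and -1.54. Slc25a11 and Slc25a26 are the carriers with the lowest p between Tol and WT thymus. Thymus WT 3 was low for Slc25a37 (153 CPM). Thymus Tol 2 was low for Slc25a36 (58.7 CPM), and Thymus Tol 1 was high for Slc25a40 (13.6 CPM).

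In cerebrum, Tol 4 was low for Slc25a12 (142 CPM, others 174 to 177) and Slc25a44 (96.3 CPM), and its log2 ratio of Slc25a39 to Slc25a40 was 1.08, with the others between 1.68 and 1.79. Cerebrum Tol 2 was high for Slc25a18 (80.8 CPM, others 54.3 to 57.9) and Cerebrum Tol 1 for Slc25a53 (18.9 CPM). Among WT libraries, Cerebrum WT 3 was high for Slc25a3 (328 CPM, others 300 to 304) and Cerebrum WT 2 for Slc25a32 (24.8 CPM).

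The effect of Tol on Slc25a25 differed between cerebrum and thymus by -0.55 on the log2 scale (edgeR interaction term, adjusted p = 0.0279). For the log2 ratio of Slc25a25 to Slc25a23, every Tol library lay above every WT library in thymus and below every WT library in cerebrum. The effects differed by -0.71, and this difference was not tested.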

How the results depend on the processing

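Between Tol and WT mice, the count of carriers called was 0 in each organ with edgeR. DESeq2 gave 3 in thymus and 1 in cerebrum, beside 1267 of 16248 and 184 of 15596 genes. Leaving out 1 library gave 0 to 8 in thymus, the 8 without Thymus Tol 1, beside 2978 of 16370 genes in that fit. It gave 0 in cerebrum, and 0 in cerebellum where a WT library was left out. For the effect of Tol in cerebrum against thymus, the count of 1 (Slc25a25) was 0 with a replicate block (edgeR, adjusted p = 0.0605) and 0 with all 22 libraries in 1 fit. It was 2 of 41 with DESeq2, beside 495 of 17774 genes. When 1 library was left out it was 0 to 4, the 4 of 42 without Thymus Tol 1, beside 1116 of 17937 genes. The cause was not tested. The DESeq2 fit of this effect, a fit with the trend over gene length removed (1 called) and library totals without TMM factors (21, 19 and 3 carriers between organs) were chosen after seeing the data. Between WT organs the counts of 22, 19 and 3 of 42 carriers moved to 18, 15 and 2 of 38 with at least 10 counts in every library. Under that filter 6852, 6418 and 1815 of 13033 genes were called. The carrier counts were 21 to 22, 19 to 20 and 2 to 3 when 1 library was left out. Replicate numbers are shared by the groups in the labels. Same-numbered Tol and WT libraries correlated from -0.58 to 0.49 in thymus, from -0.57 to 0.75 in cerebrum and from 0.11 to 0.79 in cerebellum (2 pairs). Between organs, same-numbered libraries correlated from -0.24 to 0.13 in WT mice and from -0.20 to 0.24 in Tol mice. The main fits did not use the numbers as pairs, and these values cannot settle whether same-numbered organs came from 1 mouse. With the replicate block, the counts were 0, 0 and 0 between Tol and WT mice and 22, 19 and 3 between organs, and no block could be used for paralog ratios because 4 sign-flipped pairs cannot give a p below 0.125. No result reversed. Single carriers kept their side of the call limits in 1021 of their refits, with 10 gained and 18 lost (5 of these by slipping under 2-fold between organs when 1 library was left out). Paralog ratios were labelled unchanged in 615 refits, and 1 call was lost. Most of these refits left out 1 library, where unchanged means only that the size moved by less than the larger group SD. The calls themselves were not retested there, as 3 against 4 cannot give a p below 0.0571. Depth limits carriers near 3 counts, such as Slc25a34 in thymus.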
